A study of Homo sapiens with 2 samples.

Results

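Chromatin immunoprecipitation with sequencing (ChIP-seq) of NUSAP1 in AsPC1 cells, an established line from a human pancreatic ductal adenocarcinoma, left 1591 of 9043 listed peak summits in gene deserts. A gene desert is taken here as autosomal sequence more than 200 kb from the body of every protein-coding gene. It also had to lie outside 11 windows around centromeres given in the rule, 1 on each of 11 chromosomes. The summit of a peak, its highest point, decided membership. The data came from 1 library precipitated with a NUSAP1 antibody, and 1 library of input chromatin was made from the same line with no antibody. The cells were grown in serum-containing medium, fixed with formaldehyde and sonicated, and no treatment was named. AsPC1 is a single line, so nothing here speaks for other tumours. The 7114 autosomal summits outside deserts and outside these windows serve for comparison and are called the other summits. The 206 autosomal summits inside the windows were left out. There was no replicate, so no difference between groups could be tested. Intervals below are 95% intervals that cover counting error only, and nothing is called particular to deserts. A gene is said to lie below or above a summit by its coordinate on the chromosome.

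NUSAP1 is a nucleolar and spindle-associated protein that binds and bundles microtubules around the chromosomes in mitosis and sits in the nucleolus between divisions. Gene deserts are long stretches without protein-coding genes. Some hold distant enhancers of developmental genes or genes of long non-coding RNAs (lncRNAs), transcripts that encode no protein. Much desert chromatin replicates late and lies at the nuclear periphery.

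A start of an lncRNA gene is the only kind of annotated promoter that a desert peak can cover by this rule, apart from pseudogenes and small RNA genes. At 4 lncRNA genes the summit fell inside the 300-base stretch from 250 bases before to 50 bases after the annotated start. They are given 5′ to 3′ on the strand of the gene from RefSeq (GRCh38.p14), and capitals mark the bases covered by the NUSAP1 peak.
LINC01538: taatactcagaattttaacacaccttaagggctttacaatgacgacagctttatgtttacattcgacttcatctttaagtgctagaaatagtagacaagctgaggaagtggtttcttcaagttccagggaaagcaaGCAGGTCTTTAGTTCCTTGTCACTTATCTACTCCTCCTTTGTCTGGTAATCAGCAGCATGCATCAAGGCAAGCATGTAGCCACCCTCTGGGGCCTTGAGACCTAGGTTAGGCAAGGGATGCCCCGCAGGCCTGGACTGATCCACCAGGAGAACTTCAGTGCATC
LOC102724604: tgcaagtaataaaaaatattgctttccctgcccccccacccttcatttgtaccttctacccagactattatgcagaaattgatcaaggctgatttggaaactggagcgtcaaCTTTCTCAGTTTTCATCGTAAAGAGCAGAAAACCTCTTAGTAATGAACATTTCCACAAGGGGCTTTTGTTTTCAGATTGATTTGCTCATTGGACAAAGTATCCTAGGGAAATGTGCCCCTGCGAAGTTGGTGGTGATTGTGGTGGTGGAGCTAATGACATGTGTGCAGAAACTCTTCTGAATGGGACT
LOC105373664: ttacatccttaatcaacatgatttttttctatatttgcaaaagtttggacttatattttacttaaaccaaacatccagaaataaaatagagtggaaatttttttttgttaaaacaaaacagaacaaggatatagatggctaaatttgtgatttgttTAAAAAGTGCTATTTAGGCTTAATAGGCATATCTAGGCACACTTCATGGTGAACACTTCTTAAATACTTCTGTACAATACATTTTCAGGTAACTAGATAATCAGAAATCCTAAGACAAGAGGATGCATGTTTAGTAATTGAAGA
LINC01340: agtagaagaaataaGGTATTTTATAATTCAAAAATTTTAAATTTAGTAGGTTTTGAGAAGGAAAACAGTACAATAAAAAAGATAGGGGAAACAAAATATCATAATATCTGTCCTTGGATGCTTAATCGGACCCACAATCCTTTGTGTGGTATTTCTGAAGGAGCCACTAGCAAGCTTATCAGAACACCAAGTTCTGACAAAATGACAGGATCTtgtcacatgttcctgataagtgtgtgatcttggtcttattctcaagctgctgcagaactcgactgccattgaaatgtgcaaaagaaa
The windows are chr18:64260006-64260305 (minus strand) for LINC01538, chr3:181442437-181442736 (minus) for LOC102724604, chr2:145631798-145632097 (minus) for LOC105373664 and chr5:97504446-97504745 (plus) for LINC01340. The GC content was 46% at LINC01538, 42.3% at LOC102724604, 28.3% at LOC105373664 and 35.3% at LINC01340. The 1680 lncRNA starts inside deserts had a median of 41%, against 50% over all 12917 lncRNA promoters of the table and 58.7% over all its 35116 promoters. Among 4 motifs searched on both strands, TATAAA occurred once, at LINC01340, and CCAAT once, at LOC102724604, and neither overlapped another motif. GGGCGG and TGANTCA were in none of the 4 windows. Over all promoters of the same length, 11.5% held TATAAA, 34.6% CCAAT, 44.95% GGGCGG and 7.71% TGANTCA.

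Desert summits were weak. The number of precipitated fragments at the summit, worked out from the caller's values, had a median of 5 in deserts, with quartiles of 4 and 6 (range 4 to 182), and the same median and quartiles among the other summits (range 4 to 59). The fold enrichment, the summit over the caller's local background, had a median of 3.08 in deserts (quartiles 2.83 and 3.51) and 3.01 among the other summits (quartiles 2.72 and 3.51). The highest fold enrichment was 5.41 in deserts and 11.4 among the other summits.

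By the caller's own q, 11 of 1591 desert summits (0.691%, 95% Wilson interval 0.386 to 1.23) were under 0.05, against 58 of 7114 other summits (0.815%, 0.631 to 1.05). Over the whole list the share was 1.48%. Most desert summits, 1321 (83.0%), had a q of 0.5 or more, and so had 5991 other summits (84.2%). By this q, most single peaks in both groups were thus not distinguished from background. The caller's own Poisson p was 0.005 or less for every listed peak. With 7 or more fragments there were 156 desert summits (9.81%, 8.44 to 11.4) and 805 other summits (11.3%, 10.6 to 12.1), and 12.2% over the whole list. The intervals of the desert and other summits overlapped for both measures.

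**Figure D1:**
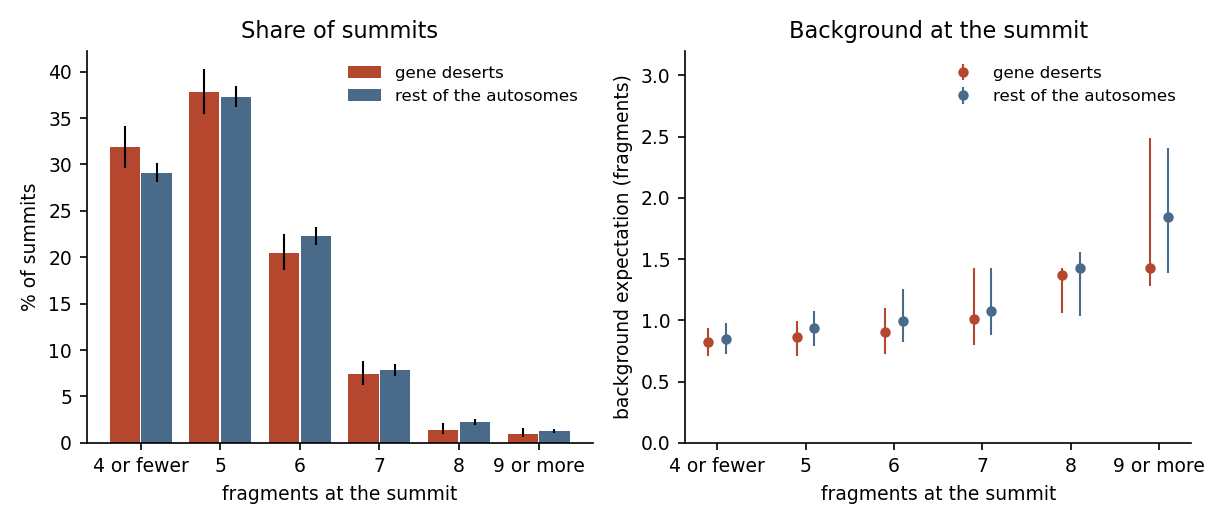
Left, percentage of summits (y) by number of fragments at the summit (x) in gene deserts and in the rest of the autosomes, with 95% Wilson intervals; right, the caller's background expectation in fragments (median, bars from the lower to the upper quartile) for the same classes. In both groups 5 fragments is the commonest class (37.8% in deserts, 37.3% in the rest), and the median background is lower in deserts in each class.

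The background expectation at the summit was lower in deserts. It had a median of 0.850 fragments in deserts (quartiles 0.712 and 1.01) and 0.935 among the other summits (0.779 and 1.06). At the lowest level of the list (within 0.01 fragments of 0.708) stood 446 desert summits (28.03%, 25.9 to 30.3) and 1259 other summits (17.7%, 16.8 to 18.6), and these intervals do not overlap. At a fixed 5 fragments the median background was 0.864 in deserts and 0.935 among the other summits, and the fold enrichment was 3.22 in deserts and 3.10 among the other summits. Of 15 chromosomes with at least 10 such summits in each group, the desert median was lower on 12, higher on 2 (chromosomes 8 and 18) and equal on 1. Since the fold enrichment divides by this background, equal fragment numbers give a higher fold in deserts. Whether the lower background changed which desert peaks were listed was not tested.

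The 11 desert summits with q under 0.05 rested on few fragments, with 1 exception. That exception was at position 59163250 of chromosome 6, where 182 fragments stood over an expected 70.5 (fold enrichment 2.56, q 1.21e-22). It lies 1516 kb above PRIM2, which encodes the large subunit of DNA primase, at the centromere of chromosome 6. The windows named in the rule do not cover this centromere. A further summit in that region, at 59278647, had 9 fragments over 0.850 (fold enrichment 5.41, q 0.00449). Another, at 36658422 on chromosome 12, had 8 fragments over 0.712 (fold enrichment 5.26, q 0.0106). It marks the upper edge of a stretch of 1.32 Mb with neither a gene nor a peak around the centromere of that chromosome. These 3 are thus deserts by the rule and centromeric by position.

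The other 8 lay in deserts of the chromosome arms. The highest fold enrichment among them was 5.41, at position 176654882 of chromosome 3 (peak 176654623 to 176654992), with 9 fragments over 0.850 and a q of 0.00449. That summit lies 364 kb below TBL1XR1, which encodes a subunit of nuclear receptor corepressor complexes, and 19.4 kb from the lncRNA gene LINC01208. On chromosome 11 a summit at 25766800 had 8 fragments (fold enrichment 5.27, q 0.0105). It was the only one of the 8 inside an lncRNA gene, LINC02699, and lay 422 kb below ANO3, an anoctamin gene. On chromosome 10 a summit at 108570473 had 8 fragments (fold enrichment 5.26, q 0.0106), between the sorting receptor gene SORCS1, 1389 kb below, and the aminopeptidase gene XPNPEP1, 1294 kb above. On chromosome 8 a summit at 110556019 had 9 fragments (fold enrichment 5.09, q 0.0114), 580 kb above the potassium channel gene KCNV1 and within the pseudogene LOC100132280.

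Chromosome 6 held 3 of these 8. The summit at 104301104 had 8 fragments (fold enrichment 5.27, q 0.0105) and lay 427 kb below HACE1, which encodes a ubiquitin ligase. The summit at 122170482 had 9 fragments (4.78, q 0.0307), 229 kb below the heat shock factor gene HSF2. The summit at 112671641 had 10 fragments (4.54, q 0.0392) between RFPL4B, 320 kb below, and MARCKS, which encodes a kinase C substrate, 1186 kb above. The last of the 8, at 57487609 on chromosome 2, had 8 fragments (4.79, q 0.0443) and lay 420 kb below VRK2, a kinase gene. All 8 thus stood on 8 to 10 fragments.

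Desert density was close to or below that of the rest, depending on which sequence was counted. The 1591 desert summits were 18.3% (17.5 to 19.1) of the 8705 in both groups, and the deserts were 503 Mb, 18.9% of the sequence. This came to 3.16 summits per Mb in deserts (95% exact Poisson interval 3.01 to 3.32) and 3.29 per Mb in the rest of the autosomes (3.21 to 3.37), a ratio of 0.961 (0.910 to 1.02). These lengths leave out stretches of over 1 Mb with neither gene nor peak, and with those kept the deserts were 541 Mb and the ratio 0.895 (0.847 to 0.945). With those stretches again left out, 1547 summits would be in deserts if each chromosome's deserts had the density of its rest. The observed number was 1.03 times that. Without chromosome 2 this ratio was 0.986.

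Density differed more between chromosomes than between deserts and the rest, 15.2-fold from the lowest to the highest desert density and 8.12-fold among the rest. Desert density ran from 0.455 summits per Mb on chromosome 13 (14 summits) to 6.90 on chromosome 11 (132 summits). The rest of the same chromosomes had 1.02 per Mb on chromosome 13 and 6.11 on chromosome 11. Chromosomes 2, 3, 5, 6 and 11 held 941 desert summits (59.1%) in 36.9% of the desert sequence, and chromosomes 4, 13 and 14 held 58 (3.65%) in 20.5% of it. Across the 22 autosomes, desert and other density went together, with a Pearson r of 0.91 and a Spearman rho of 0.88. Both densities come from 1 library and share its depth and any difference in DNA content between chromosomes, and their part was not tested.

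**Figure D2:**
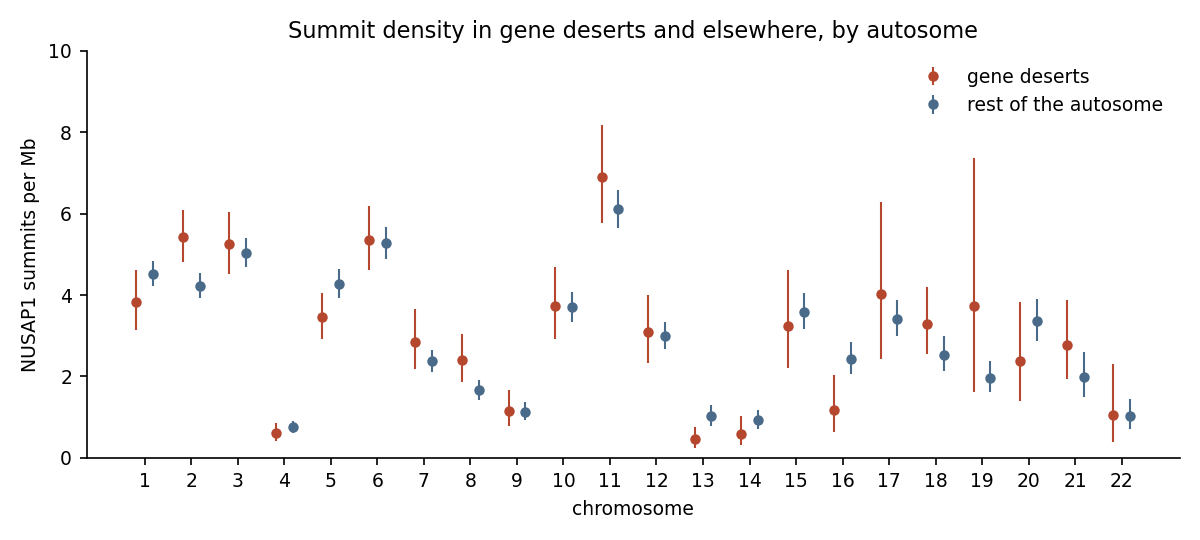
NUSAP1 summits per Mb (y) in gene deserts and in the rest of each autosome (x); bars are 95% Poisson intervals. Both series go up and down together, from 0.455 per Mb in the deserts of chromosome 13 to 6.90 in those of chromosome 11.

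Within chromosomes, with long stretches without gene or peak left out as above, density was higher in deserts on 14 and lower on 8 of the 22. The interval of the ratio excluded 1 on 5 of them, in both directions. On chromosome 2 there were 5.41 summits per Mb in deserts and 4.23 elsewhere (ratio 1.28, 1.11 to 1.47). Chromosome 8 had 2.40 per Mb in deserts and 1.66 elsewhere (1.45, 1.08 to 1.91). Chromosome 5 had 3.45 in deserts and 4.28 elsewhere (0.806, 0.668 to 0.968). On chromosome 13 the ratio was 0.444 (0.230 to 0.797), and chromosome 16 had 1.18 in deserts and 2.43 elsewhere (0.487, 0.254 to 0.856). Chromosomes thus did not share a direction.

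Between 200 kb and 1 Mb from a protein-coding gene, density changed little with distance. The ratios by distance also leave out stretches of over 1 Mb with neither gene nor peak. Leaving these out can only raise desert densities, and the ratios were not computed with them kept. Relative to the density of each chromosome, the ratio was 1.07 (1.00 to 1.14) at 200 to 500 kb from a protein-coding gene, with 939 summits. It was 1.02 (0.931 to 1.11) at 500 kb to 1 Mb, with 506 summits. Beyond 1 Mb, 146 summits gave 0.814 (0.687 to 0.957), and 0.870 (0.734 to 1.02) relative to the density of fixed 5 Mb windows. Both densities include the summits being counted, which draws the ratios toward 1, more so in a window. Nearer to genes the ratio to the chromosome was 1.11 (1.05 to 1.17) at 50 to 200 kb and 0.950 (0.920 to 0.981) inside genes. All of these ratios thus lay between 0.814 and 1.11.

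Of the farthest summits, 22 of 146 beyond 1 Mb had 7 or more fragments (15.1%, 10.2 to 21.8), against 86 of 939 (9.16%, 7.48 to 11.2) at 200 to 500 kb, and these intervals overlap. With round windows around the other centromeres also left out, 13 of 130 (10%, 5.94 to 16.4) were left beyond 1 Mb. The 5 desert summits farthest from a protein-coding gene were at or near the centromeres of chromosomes 18 and 22. On chromosome 22 there were 4, with the farthest 3946 kb from the olfactory receptor gene OR11H1 (fold enrichment 4.10, 6 fragments, q 0.418). The fifth, at 17929827 on chromosome 18, lay 2989 kb above ANKRD30B (fold enrichment 4.68, 7 fragments, q 0.0857). None of these 5 had a q under 0.05. At the limit itself, the nearest member lay 200422 bp from HNRNPA3 (fold enrichment 3.48), and the nearest summit excluded lay 199427 bp from PLA2G4A (2.89).

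**Figure D3:**
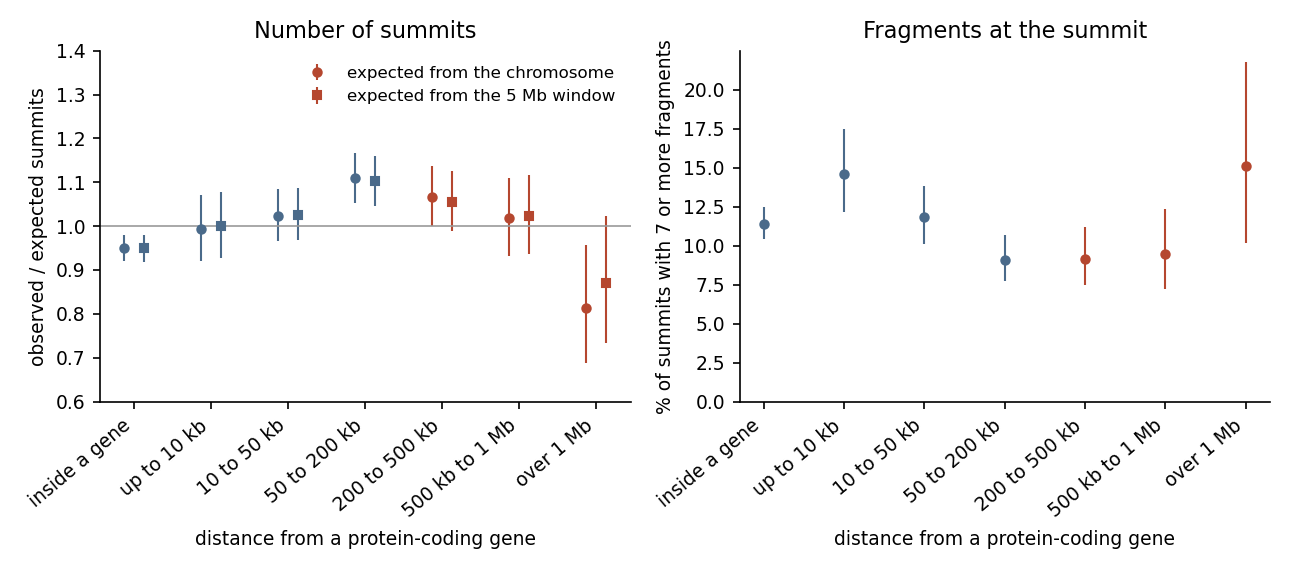
Left, observed over expected number of summits (y) by distance from the nearest protein-coding gene (x), expected from the density of the chromosome (circles) or of the 5 Mb window (squares), with 95% Poisson intervals; right, percentage of summits with 7 or more fragments in the same classes, with 95% Wilson intervals. The 3 classes beyond 200 kb (red) are the deserts and the others (blue) the rest of the autosomes; the deserts stand at 1.07, 1.02 and 0.814 relative to their chromosomes.

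Desert summits were spread unevenly over the desert stretches. There were 783 unbroken stretches, of which 378 had no summit and 144 had 1, while 111 stretches with 5 or more held 1037 summits (65.2%) in 31.2% of the desert length. The 378 without a summit were mostly short, with a median of 0.194 Mb against 1.21 Mb for those 111, and made up 28.6% of the length. Of the 171 stretches of at least 1 Mb, 37 had none and 73 had 5 or more. On chromosome 18 the 1.30 Mb between the galanin receptor gene GALR1 and SALL3 held 27 summits, 20.7 per Mb (13.7 to 30.2), against 6.79 per Mb in its flanks, the sequence nearer to genes within 2 Mb on either side. Their fold enrichments ran from 2.47 to 4.42, and their smallest q was 0.107. The median background of these 27 was 1.402 fragments, and it was 0.850 over all desert summits.

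Other stretches with many summits were longer. Between CTNNA2, the gene of a neuronal catenin, and SUCLG1, of the succinyl-CoA ligase, on chromosome 2, 27 summits lay in 3.37 Mb (8.001 per Mb, flanks 5.50). Between OTOL1 and the sucrase-isomaltase gene SI on chromosome 3, 26 lay in 3.07 Mb (8.46 per Mb, flanks 4.87). Between the teneurin gene TENM4 and FAM181B on chromosome 11, 25 lay in 2.89 Mb (8.65 per Mb, flanks 10.0). None of these 4 stretches held a summit with q under 0.05. They were picked for their counts, so their densities beside those of the flanks are a description only. In 3 of the 4 the stretch was denser than its flanks, and beside TENM4 it was less dense.

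The longest stretches with no summit were also poor in their flanks. On chromosome 16, 2.51 Mb lay between the aminotransferase gene GOT2 and the cadherin gene CDH8, and a further 2.51 Mb between CDH8 and CDH11. Taking 3 counts as the limit that a count of 0 allows, there could be up to 1.19 and 1.20 summits per Mb there, and the flanks had 0.359 and 0.514. The other 3 were 2.49 Mb between ZPLD1 and the adhesion gene ALCAM on chromosome 3, up to 1.21 per Mb, 3.61 Mb between AGA and TENM3 on chromosome 4, and 2.11 Mb between the enteropeptidase gene TMPRSS15 and NCAM2 on chromosome 21, up to 1.42. The stretch between AGA and TENM3 allows up to 0.832 per Mb over its whole length, or 1.29 over the 2.33 Mb left without a part with neither gene nor peak. The flanks of these 3 had 0.360, 0 and 0 per Mb. Over the 171 stretches of at least 1 Mb, density in the stretch and in its flanks had a Spearman rho of 0.80, in 1 library. The stretch was denser than its flanks in 67 of them, less dense in 96 and equal in 8.

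**Figure D4:**
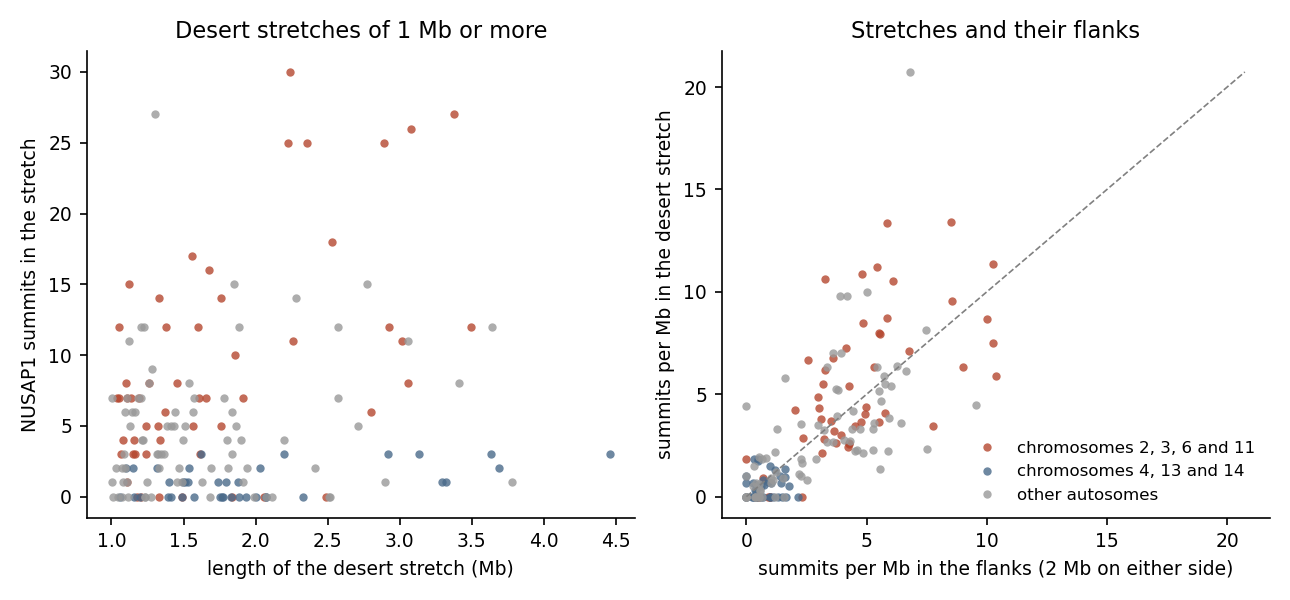
Left, number of summits (y) against length in Mb (x) for the 171 desert stretches of at least 1 Mb; right, summits per Mb in the stretch (y) against summits per Mb in the sequence nearer to genes within 2 Mb of it (x), with a dashed line where both are equal. Stretches of chromosomes 4, 13 and 14 lie low on both axes, and the 1.30 Mb stretch beside SALL3 stands highest at 20.7 per Mb.

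Inside deserts, lncRNA genes held about as many summits as their share of the sequence. A summit lay in or within 1 kb of an lncRNA gene in 434 of 1591 (27.3%, 25.1 to 29.5), and such sequence made up 27.0% of the deserts. Among summits with 7 or more fragments it was 32 of 156 (20.5%, 14.9 to 27.5). Each summit was counted for 1 lncRNA gene only, also where such genes overlap. By this count 269 genes had a desert summit in their body and 11 had 5 or more. In all, 2715 lncRNA genes reach into deserts, and 269 is a lower limit for those that hold a summit. LINC02006 on chromosome 3 (gene ID 105374165, 153383550 to 153762526) had the most by this count, 10 in 379 kb. Their fold enrichments ran from 2.44 to 3.64, and their smallest q was 0.554. LINC02934 on chromosome 2 had 7 in 298 kb (smallest q 0.195). Neither held a summit with q under 0.05.

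Starts of lncRNA genes had more summits than their share of the desert sequence. Within 1 kb of such a start lay 17 summits (1.07%, 0.668 to 1.70), against 0.615% of the desert sequence, where the chromosomes' own desert densities give 9.86. Within 250 bp there were 6 of these 17 (0.377%, 0.173 to 0.820), against 0.158% of the sequence, where the same densities give 2.53. The Wilson intervals of both shares lie above the share of the sequence. The 2 shares are not independent, the numbers are small and no test was made, so an excess at starts is not established. Of the 17, 9 lay before the start and 8 after it. Their fold enrichments ran from 2.51 to 4.68, and their smallest q was 0.0857, so none was under 0.05.

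That smallest q was at LOC105373664, whose sequence is given above. The summit, at 145631820 on chromosome 2, stood on 7 fragments over 0.708 (fold enrichment 4.68), 1112 kb above ZEB2, the gene of a zinc finger repressor. It lay 27 bp inside the start used for that sequence and 33 bp inside the other listed start of the gene. At LINC01538 the summit was 10 bp before the start, on 5 fragments (3.51, q 0.779). At LOC102724604, 269 kb below SOX2, it was 15 bp inside, on 4 fragments (2.51, q 1). At LINC01340 it was 138 bp before the start, on 5 fragments (2.97, q 0.933). Among these 4, only the summit at LOC105373664 had more fragments than the desert median of 5.

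**Figure D5:**
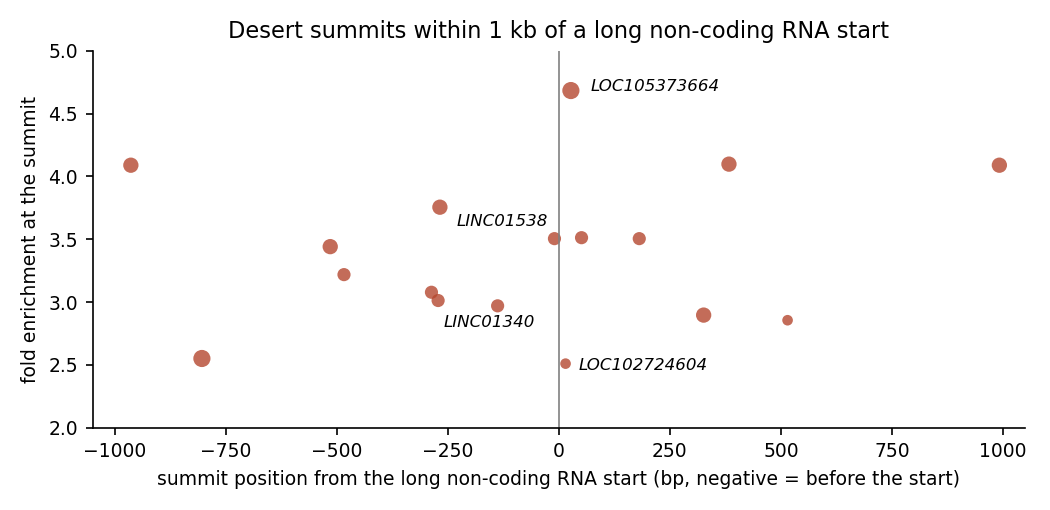
Fold enrichment (y) of the 17 desert summits within 1 kb of an lncRNA start against their position from the start in bp (x, negative before the start); larger points have more fragments (4 to 7). The 6 summits within 250 bp include the highest fold enrichment of the 17, 4.68 at LOC105373664.

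Pseudogenes, small RNA genes and immune receptor segments, with 1 kb around them, held 30 desert summits (1.89%, 1.32 to 2.68) and 2.15% of the desert sequence. For microRNA genes it was 1 summit (0.0629%), against 0.0385% of the sequence. Segments of antigen receptors are not annotated as protein-coding genes, so the rule can count sequence of these loci as desert. There lay 3 members (0.189%), 2 in the immunoglobulin locus IGH and 1 in the T cell receptor locus TRB. Such loci made up 0.344% of the desert sequence, where the chromosomes' own desert densities give 1.23 summits.

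Chosen lists of developmental, adhesion, and pancreatic or epithelial genes were set beside their share of the desert sequence. Not every listed gene had desert sequence nearest to it. Of 72 developmental transcription factor genes, 48 had desert sequence nearest to them and 23 had a desert summit. They were the nearest gene of 92 summits (5.78%, 4.74 to 7.04) and of 4.16% of the desert sequence. With the desert density of each chromosome, 73.9 summits would be nearest to these genes, a ratio of 1.25, and with that of each 5 Mb window 92.9, a ratio of 0.990. These densities include the summits being counted, which draws such ratios toward 1, more so in a window than in a chromosome. The window ratios, also those of the lists below, thus cannot show how far local density accounts for the chromosome ratios. SALL3, a zinc finger gene, had 12 (fold enrichments 2.48 to 3.93), and the homeobox gene MEIS1 had 10 (2.48 to 4.29). TFAP2A and ZIC1, both of which act in neural crest or brain development, had 8 each.

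Of the 10 near MEIS1, 9 lay below the gene between 65951431 and 66224923 of chromosome 2, 6 of these inside LINC02934. The highest had 7 fragments over 0.864 (q 0.195). The smallest q of the 92 was 0.0857.

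Cadherin, protocadherin and synaptic adhesion genes were nearest to a smaller share of summits than of sequence. Of 48 such genes in the gene table, 41 had desert sequence nearest to them and 27 had a summit, 83 in all (5.22%, 4.23 to 6.42), against 9.55% of the sequence. With the desert density of each chromosome the ratio to expectation was 0.671, and with that of each 5 Mb window it was 0.813. With the gene on either side counted, these ratios were 0.841 and 0.965. CNTNAP5, the gene of a contactin-associated protein, had 10 summits (fold enrichments 2.48 to 3.51). ADGRL2, a latrophilin gene, LINGO2 and LRRTM4, both of leucine-rich repeat membrane proteins, had 6 each. The smallest q of the 83 was 0.0857.

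Regulators of pancreatic and epithelial identity were nearest to 20 summits (1.26%, 0.815 to 1.93) and to 1.02% of the sequence, at 6 of 13 genes with desert nearest to them, out of 38 listed. ETV1, an ETS factor gene, had 6, all inside the lncRNA gene LOC107986770, with fold enrichments from 2.41 to 3.24. MYC had 4, at 222, 522, 601 and 802 kb above it, on 5, 6, 7 and 6 fragments (fold enrichments 2.48, 2.89, 3.35 and 2.89). The summit at 222 kb lay inside PVT1, an lncRNA gene beside MYC. NR5A2, a nuclear receptor gene of acinar cells, had 4, and so had SOX9, a ductal factor that is also in the developmental list. KLF5, an epithelial factor, had 1 at 230 kb on 6 fragments over 0.708 (4.10, q 0.418). The smallest q of these 20 was 0.418. With the desert density of each chromosome, 12.7 summits would be nearest to these genes, a ratio of 1.58, and with that of each 5 Mb window 18.7, a ratio of 1.07.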

How the data were processed

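Per the submitters' processing notes, reads were handled with Trimmomatic 0.33, bcl2fastq 2.17, MACS2 2.1.0 and Bowtie 1.1.2, and the build named is hg38; the caller's settings are not given in the sources used here. The deposited peak list holds, per its layout, a display score (10 times -log10 p, cut to a whole number), -log10 q and -log10 p from the authors' caller, the fold enrichment as a ratio to what the caller expected locally, and the summit offset. The list gives no library totals, so depth per library is unknown. The input library had no file used here. Positions count from 1.

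Fragments and background at each summit were worked out from the fold, read as (fragments + 1) over (background + 1), and the Poisson p; all 9043 summits were matched within 0.001 in -log10 p, and the method was checked on simulated data. Genes came from a RefSeq table of GRCh38.p14 (59792 genes, 831 on other sequences left out). Its list of starts and promoters covers only part of the lncRNA genes. Sequence lengths leave out stretches of over 1 Mb with neither gene nor peak. Sequence shares for distances and gene lists used points every 1 kb. Listed fold enrichments and q are the authors' and serve to describe peaks of this list. Of 49 adhesion genes listed, 48 were in the table.

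Peaks named singly were those with q under 0.05, the 5 with the highest fold enrichment and the 5 farthest from a gene. Stretches named were the 5 with the most summits and the 5 longest with none (by the length so counted), and for each list up to 4 genes with the most summits (a tie at the last place was kept). The lncRNA genes with summits at the start or in the body, KLF5, IGH, TRB, the summits at the 200 kb limit and those of high background on chromosome 13 were named outside that rule, after their values were seen. One stretch and one adhesion gene that the rule picks, and some lncRNA genes, are not reported here. The members and lists were chosen with earlier results of these data known. Tables were computed in pandas 2.3.3 with scipy 1.17.1 under Python 3.11.15 (numpy 2.4.6), and plots drawn in matplotlib 3.10.9.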

Additional observations from a re-analysis of the deposited data

How the results depend on the processing

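The number of desert summits, 1591, was 652 at 500 kb from protein-coding genes, 93 at 200 kb from genes of any type, 156 at 7 or more fragments and 11 at q under 0.05; stricter limits keep fewer by construction. The density ratio, 0.961, was 1.02 (0.971 to 1.07) at 100 kb, 0.892 (0.822 to 0.966) at 500 kb, 0.895 (0.847 to 0.945) with stretches without genes and peaks kept, 0.815 (0.386 to 1.57) for peaks with q under 0.05 and 0.833 (0.697 to 0.990) for those with 7 or more fragments. Relative to the other summits of each chromosome it was 1.03, with such stretches left out. It was also 1.03 relative to all summits of each 5 Mb window, again with them left out. The window density includes the desert summits themselves, which draws that ratio toward 1. Both of these ratios were chosen after the data were seen, as were the round windows around further centromeres. The side of 1 on which the density ratio fell, and whether its interval held 1, thus depended on these choices, and the cause was not tested. The share of desert summits that passed a q limit was 0.0629% (1 summit, 0.0111 to 0.355) at -log10 q of at least 5. Among the other summits it was 0.0703% (5 summits, 0.0300 to 0.164). That above a fragment limit was 30.3% against 33.6% at 6 and 2.39% (1.75 to 3.26) against 3.47% (3.07 to 3.92) at 8. Both shares were lower in deserts at each limit, but the intervals of deserts and other summits overlap at each. The lncRNA share was 29.9% with 5 kb (29.9% of the sequence) and 20.5% at 7 or more fragments. With the gene on either side, shares were 11.2% (developmental), 12.1% (adhesion) and 2.64% (pancreatic), against 8.19%, 17.6% and 2.08% of the sequence; at 7 or more fragments the pancreatic share was 0.641%, from 1 summit. Stretches with 5 or more summits, 111, numbered 45 at 500 kb and 4 at 7 or more fragments. The other 22 of 44 alternatives stayed within counting error or 1.5 times (for the median fold enrichment, within 1 SD of the summits). No paired analysis was possible because 1 library gave all values. With 4 to 6 fragments at 1435 of the 1591 desert summits, counting error limits what a single peak shows.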

Other observations

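A high background was rare in deserts: 14 of the 1591 summits (0.880%, 0.525 to 1.47) had a local expectation 3 or more times the lowest listed, against 84 of the 7114 other summits (1.18%, 0.955 to 1.46). Of these 14, 6 lay in the round windows drawn around the remaining centromeres after the data were seen, which held 50 desert summits in all. They include 2 summits on chromosome 13, at 18211851 and 18212146, with 72 fragments over an expected 38.4 (fold enrichment 1.85) and 95 over 65.5 (1.44), neither with q under 0.05. Of 1569 pairs of neighbouring desert summits on a chromosome, 8 lay within 1 kb and 103 within 10 kb, and the median gap was 149 kb. These counts were not set beside those of the other summits or an expectation from density, so they do not show whether close neighbours were rare.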
